A study of Mus musculus with 13 samples.

Results

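The receptors for glutamate and GABA, the main excitatory and inhibitory transmitters of the brain, are encoded by a large set of genes best known for their roles in neurons. They were followed here in 4T1 cells, a mouse mammary tumor line from a BALB/cJ mouse, by selecting every gene whose symbol names a subunit of an AMPA (Gria), kainate (Grik), NMDA (Grin), delta (Grid), metabotropic glutamate (Grm), GABA-A (Gabr) or GABA-B (Gabbr) receptor. The rule found 40 of the 18562 genes with an entry in any of 6 ChIP-seq peak lists. RefSeq holds 48 protein-coding genes that match it, and the 8 with no entry were Gabrd, Grik3, Grin1, Grin2c, Grin3b, Grm2, Grm4 and Grid2ip, the last of which encodes a partner of a delta receptor rather than a receptor. H3K27me3 and H3K4me3 were profiled in sg-Ctrl cells, which carry a non-targeting guide RNA, and in Nup210 knockout cells (KO), in which CRISPR/Cas9 was directed at Nup210. NUP210, a membrane-anchored nucleoporin, and NPC, the set of nucleoporins seen by the antibody MAb414, were profiled in sg-Ctrl cells alone. Both cell types were given the guide by lentivirus and Cas9 transiently by adenovirus, the KO cells descend from 1 clone (N13), and each condition has 1 library. KO and sg-Ctrl could therefore not be tested against each other, what separates them cannot be told apart from what separates 1 clone or 1 library from another, and the intervals below cover counting error only.

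Ionotropic glutamate receptors are tetramers that open a cation channel when glutamate binds, and the NMDA type needs a Grin1 subunit beside Grin2 or Grin3 subunits. Metabotropic glutamate and GABA-B receptors couple to G proteins instead. GABA-A receptors are pentameric chloride channels, and most of their genes sit in small clusters of alpha, beta and gamma subunits. H3K27me3 is laid down by Polycomb repressive complex 2 and marks silenced genes, often over broad domains, whereas H3K4me3 marks the start sites of genes that are active or poised.

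The H3K27me3 library of KO was 3.16 times as deep as that of sg-Ctrl, and that of H3K4me3 1.27 times, relative to IgG. Reads are therefore given after division by this relative library size, as scaled reads per kb of peak. H3K4me3 was listed at the start of 8 of 8 epithelial marker genes and of 1 of 8 neuronal ones (Map2), in sg-Ctrl and KO alike, so the defining neuronal genes Rbfox3, Syn1 and Snap25 had none. NUP210 and NPC peaks were shallow, with a median fold over IgG of 1.19 and 1.1 against 2.57 for H3K27me3 in sg-Ctrl, and 4093 of 13204 NUP210 and 5427 of 11234 NPC peaks had an FDR above 0.05. Positions are those of the lists. The start or the end of the gene lay within 50 bp of GRCm38.p6 for 88.2% of 9364 genes. Of the receptor genes this held for 25 of 37 (67.6%), against 8.11% for NCBIM37.

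Start sites of 27 of the 40 genes have a sequence in RefSeq (GRCm38.p6), spanning 250 bases before the start to 50 after it, at most 683 bases from the start the lists use. Grin2b, Grin2a and Gria1 are among the other 13. Shown first are the 3 receptor genes with H3K4me3 over the start, Gabbr1 (chr17:37045716-37046015, plus strand), Grik5 (chr7:25072320-25072619, minus strand) and Grin2d (chr7:45866632-45866931, minus strand). Gabrr3 (chr16:59407132-59407431, plus strand) and Grm3 (chr5:9725303-9725602, minus strand) follow as the genes with the widest H3K27me3 cover for their length. Grik4 (chr9:42944322-42944621, minus strand) was added after its values were seen, as a start rich in CG that had neither mark. Capitals mark CG dinucleotides, 5′ to 3′ on the strand of the gene.
Gabbr1: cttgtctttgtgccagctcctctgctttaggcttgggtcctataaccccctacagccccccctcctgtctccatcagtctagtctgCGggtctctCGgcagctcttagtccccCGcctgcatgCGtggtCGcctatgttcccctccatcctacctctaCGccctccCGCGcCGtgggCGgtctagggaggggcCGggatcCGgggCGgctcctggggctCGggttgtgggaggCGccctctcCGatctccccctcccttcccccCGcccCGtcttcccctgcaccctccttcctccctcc
Grik5: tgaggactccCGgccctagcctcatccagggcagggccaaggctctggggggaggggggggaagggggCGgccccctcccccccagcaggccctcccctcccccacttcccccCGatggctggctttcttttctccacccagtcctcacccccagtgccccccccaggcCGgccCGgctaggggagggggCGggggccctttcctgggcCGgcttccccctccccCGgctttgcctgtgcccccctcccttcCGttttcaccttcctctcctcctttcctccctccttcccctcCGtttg
Grin2d: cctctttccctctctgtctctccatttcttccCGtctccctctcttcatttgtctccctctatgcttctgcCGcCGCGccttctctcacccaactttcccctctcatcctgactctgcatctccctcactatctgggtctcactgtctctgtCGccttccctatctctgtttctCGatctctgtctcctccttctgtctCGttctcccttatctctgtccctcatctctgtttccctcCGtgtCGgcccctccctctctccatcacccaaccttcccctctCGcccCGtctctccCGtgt
Gabrr3: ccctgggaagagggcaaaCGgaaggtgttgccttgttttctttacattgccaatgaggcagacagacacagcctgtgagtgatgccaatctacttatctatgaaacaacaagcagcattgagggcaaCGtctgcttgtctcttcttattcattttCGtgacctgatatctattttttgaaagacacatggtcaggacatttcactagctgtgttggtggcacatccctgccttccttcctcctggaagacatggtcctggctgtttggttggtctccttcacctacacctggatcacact
Grm3: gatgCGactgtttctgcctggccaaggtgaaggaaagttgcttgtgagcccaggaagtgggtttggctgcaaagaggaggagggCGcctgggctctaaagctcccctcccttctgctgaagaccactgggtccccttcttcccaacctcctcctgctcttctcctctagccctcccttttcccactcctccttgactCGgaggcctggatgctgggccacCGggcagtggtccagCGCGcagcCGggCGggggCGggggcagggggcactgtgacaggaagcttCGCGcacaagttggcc
Grik4: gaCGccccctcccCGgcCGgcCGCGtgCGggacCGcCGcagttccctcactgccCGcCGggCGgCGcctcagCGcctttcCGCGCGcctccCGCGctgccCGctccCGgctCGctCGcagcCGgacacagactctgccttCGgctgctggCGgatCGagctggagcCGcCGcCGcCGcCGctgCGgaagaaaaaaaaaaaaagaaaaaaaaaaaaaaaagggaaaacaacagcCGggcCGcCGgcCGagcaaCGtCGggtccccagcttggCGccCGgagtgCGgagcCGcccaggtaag

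These starts differ widely in CG content, and the marked ones were not the richest. Gabbr1 held 18 CG dinucleotides, Grik5 10 and Grin2d 12, against 42 for Grik4 and 46 for Gabbr2, which had no H3K4me3. Gabrr3 held 3 and Grm3 11. The median was 12 over the 27 receptor starts and 7 over all 32851 RefSeq promoters. Over 8408 genes with H3K4me3 over the TSS it was 23, with the promoter richest in CG taken for each gene. It was 12 over the 3 marked receptor starts. The GC box GGGCGG, the letters bound by Sp1 factors, was found on either strand in 13 of the 27 (48.1%) and in 35.7% of all promoters. Among the 8408 promoters of genes with H3K4me3 over the TSS the share was 71.3%. The TATA box TATAAA was found in 2, those of Gabra3 and Gabrb2, and in 13.6% of all. Among the 3 receptor starts with H3K4me3, Gabbr1 and Grik5 held a GC box and Grin2d did not. These counts describe the letters of the window only.

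Receptor genes were nearly devoid of H3K4me3. Of the 48, 3 had a peak within 4 kb of the start in sg-Ctrl (6.25%, exact binomial interval 1.31 to 17.2), against 53.1% of all 21631 protein-coding genes, and the same 3 were listed in KO, where the share of all genes was again 53.1%. None of the 26 receptor genes of 100 kb or more had one, while 61.7% of all genes of 100 to 200 kb, 47.1% of those of 200 to 500 kb and 21.9% of those of 500 kb or more did. The 3 were Gabbr1, the GABA-B subunit that binds GABA, Grik5, an auxiliary kainate subunit that needs a partner to form a channel, and Grin2d, an NMDA subunit of the embryonic brain. None of these had an H3K27me3 peak in either list. Most genes with H3K4me3 had none either: of all 11494 such protein-coding genes in sg-Ctrl, 5.52% had H3K27me3 there.

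At all 3 the mark was weak and no lower in KO. The peak over the Gabbr1 start (TSS at 37045966 on chromosome 17) held 267 reads in sg-Ctrl (exact Poisson interval 236 to 301) and 594 in KO (547 to 644), with 27 IgG reads in each. Scaled, these were 105 and 157 reads per kb, so that KO stood at 1.5 times sg-Ctrl (1.3 to 1.74). At the Grik5 start (25072369 on chromosome 7) 365 reads became 639, or 132 and 182 scaled reads per kb, a ratio of 1.38 (1.21 to 1.57), with 0 IgG reads. At the Grin2d start (45866681 on chromosome 7) there were 325 and 409 reads, or 170.2 and 189.7 scaled reads per kb, a ratio of 1.11 (0.961 to 1.29), again with 0 IgG reads. With this scaling by library size, the interval excludes equality at Gabbr1 and Grik5 and includes it at Grin2d. All 3 lay near the lower end of the sg-Ctrl densities, with 2.33% of genes below Gabbr1, 3.68% below Grik5 and 5.67% below Grin2d.

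Across all 11330 genes with a peak over the start in both lists, the log2 ratio of KO to sg-Ctrl had a median of -0.50, and 10.7% had a ratio above 1. Against this, Gabbr1 stood at 0.59, Grik5 at 0.46 and Grin2d at 0.16. Genes as weakly marked in sg-Ctrl behaved otherwise than the whole, however. Of 606 genes with 100 to 200 scaled reads per kb the median was -0.04 and 47% lay above 0, and of these 90.9% had a lower ratio than Gabbr1, 84.2% than Grik5 and 63.4% than Grin2d. Scaled by library size, none of the 3 was 2-fold lower or higher in KO. Scaled by the reads of peaks shared by both lists, the log2 ratios were 1.05 at Gabbr1, past 2-fold, 0.93 at Grik5 and 0.62 at Grin2d. That scaling shifts all genes alike. By library size and the densest peak near the start, 9.66% of 12197 genes were 2-fold lower and 0.525% higher. For Grik5 that densest peak, with 2120 and 2654 reads and a log2 ratio of -0.52, lies at the start of its neighbour Zfp574 (TSS at 25077205), so the peak over its own start was used here, a choice made after the values were seen.

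**Figure D1:**
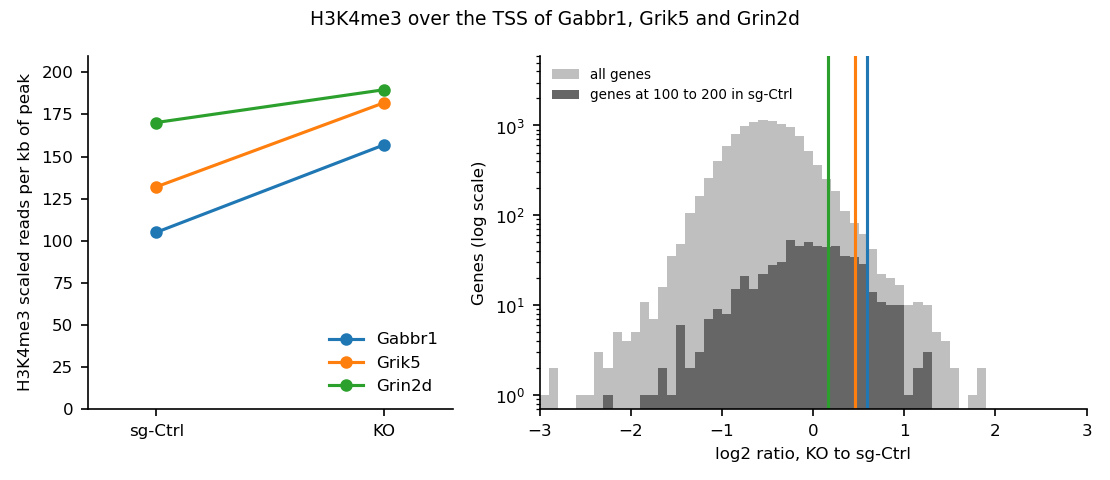
H3K4me3 over the TSS of the 3 receptor genes that had it, as scaled reads per kb of peak in sg-Ctrl and KO (left), and the log2 ratio of KO to sg-Ctrl for 11330 genes, with the 606 genes at 100 to 200 scaled reads per kb in dark grey and the 3 receptor genes as vertical lines in the colours of the left panel (right, gene counts on a log scale). The receptor genes lie at 0.16, 0.46 and 0.59, to the right of the median of all genes at -0.50.

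H3K27me3, in contrast, lay over most of the family. A peak was listed on the body of 30 of the 48 genes in sg-Ctrl (62.5%, exact interval 47.4 to 76) against 19.8% of all protein-coding genes, and of 32 in KO (66.7%, 51.6 to 79.6) against 20.4%. The receptor genes are long, with a median of 126 kb against 16.9 kb, and long genes meet more peaks. Within classes of length the shares in sg-Ctrl were 5 of 7 at 50 to 100 kb (all genes 23.3%), 4 of 4 at 100 to 200 kb (33.2%), 13 of 15 at 200 to 500 kb (51.6%, with an exact interval of 59.5 to 98.3 for the receptor genes) and 5 of 7 at 500 kb or more (72.9%). The shares thus lay above that of all genes from 50 to 500 kb and near it at either end, where 1 of 8 receptor genes under 20 kb had a peak against 15.5%. Members of 1 gene cluster share their surroundings, so the genes are not independent.

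**Figure D2:**
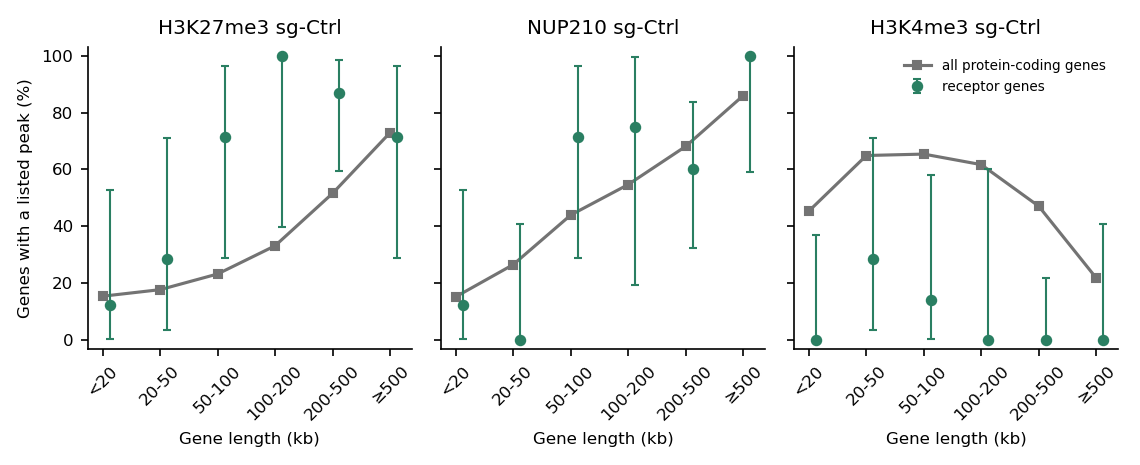
Share of genes with a listed peak of H3K27me3, NUP210 or H3K4me3 in sg-Ctrl by gene length, for the receptor genes (circles, with exact 95% binomial intervals) and all protein-coding genes (squares). The H3K27me3 shares of receptor genes lie above those of all genes from 50 to 500 kb, the NUP210 shares lie on either side of them, and H3K4me3 is at 0 from 100 kb upward.

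Where it was present, H3K27me3 tended to sit within the gene and not on its start. Of the 35 receptor genes with a peak in either list, the start itself was covered for 3 in sg-Ctrl (8.57%) and 4 in KO (11.4%), against 47.3% and 53.1% of all 5853 genes with a peak. Among genes of 100 kb or more the counts were 1 and 2 of 23 receptor genes, with 27.3% and 28.6% of all 1137. Gabra3, Gabra6 and Gabrr3 had the start covered in both lists and Grik2 in KO. The median distance from the start to the nearest covered base was 7.52 kb for sg-Ctrl peaks but 4.46 kb for KO peaks.

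The covered length was larger in KO. In sg-Ctrl, H3K27me3 peaks covered 3.98 Mb of the 35 gene bodies (37.9%). The KO peaks covered 4.82 Mb (45.9%), or 1.21 times as much, while over all genes with a peak the factor was 1.1. Of the 35, 24 had more cover in KO, 8 less and 3 the same. Over all 5853 genes with a peak, 2501 had more, 1664 less and 1688 the same. The share of the body covered was higher by at least 10 percentage points in 13 (all genes 30.4%) and lower by as much in 4 (all genes 18.1%), and the median change was 7.36 points against 0. Restricted to 100 kb or more, 17 of 23 had more cover, as did 642 of all 1137 genes of that length. By at least 10 points, 9 of the 23 gained (all genes of that length 28.6%) and 2 lost (18.1%). The number of peaks was 233 in sg-Ctrl and 206 in KO, so the wider cover came with fewer peaks. This was not particular to the receptor genes. Summed over all genes with a peak, the numbers were 10721 and 10314, and over those of 100 kb or more 5811 and 5304. In all, 1398 kb were covered in KO alone and 556 kb in sg-Ctrl alone. Of the net 842 kb, 647 kb lay on Grin2b, Grik4, Grin2a and Gria1. The KO library was the deeper, and its part in this difference was not tested.

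**Figure D3:**
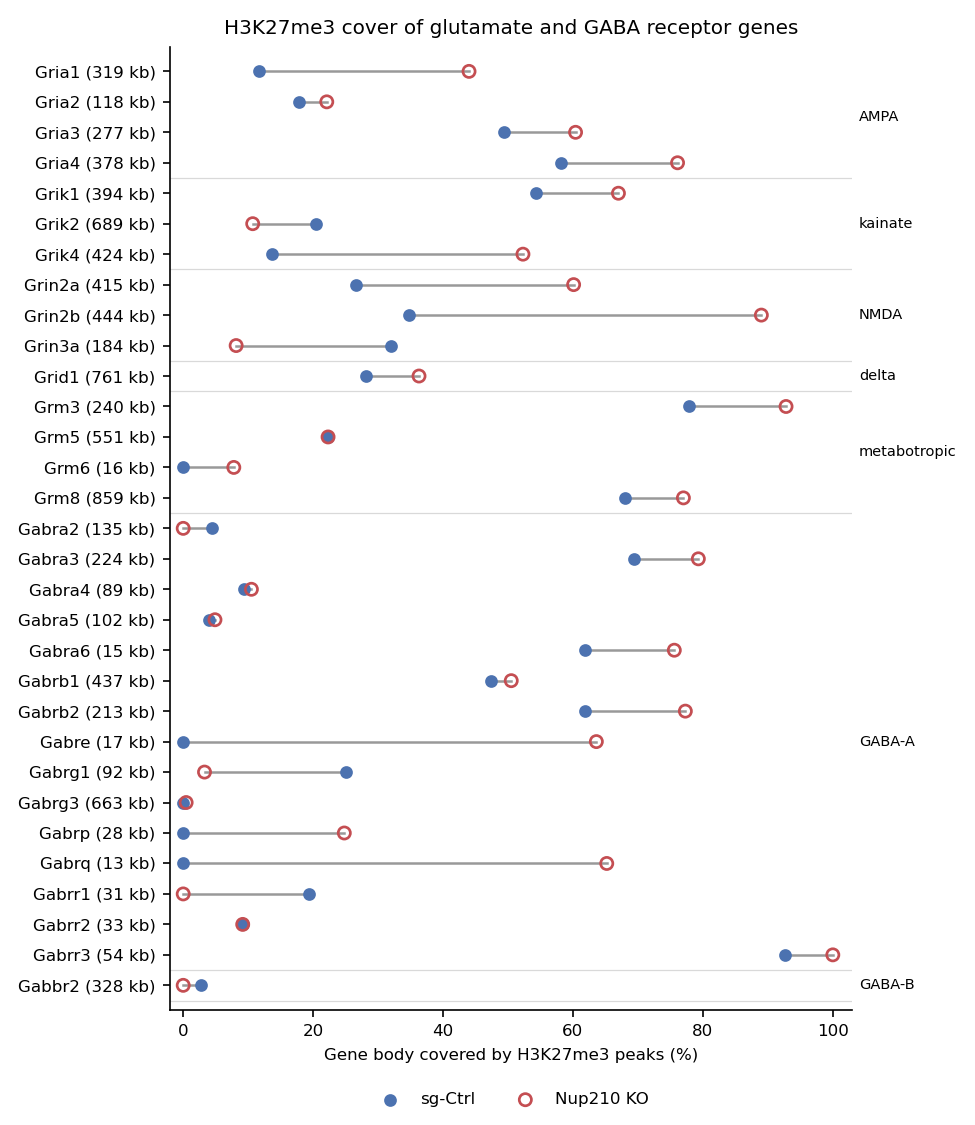
Percent of the gene body covered by H3K27me3 peaks in sg-Ctrl (filled) and Nup210 KO (open) for receptor genes with a peak in either list, by receptor class, with the gene length in kb. Genes whose results are not reported one by one are left out. The longest gaps to the right are at Gabrq, Gabre, Grin2b, Grik4, Grin2a and Gria1, and the longest to the left at Grin3a, Gabrg1 and Gabrr1.

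The AMPA subunits, which carry most fast excitatory transmission, all had H3K27me3, and listed peaks covered more of each in KO. Over the 4 genes, sg-Ctrl peaks covered 415 kb and KO peaks 622 kb. Gria1 (319 kb, chromosome 11) was covered over 11.6% in sg-Ctrl and 44% in KO. Its 3 peaks of sg-Ctrl were 5.72-fold over IgG at the median, the highest of any receptor gene of 100 kb or more. Gria4 went from 58.2% to 76.1% and Gria3, on the X chromosome, from 49.4% to 60.4%, both beyond 10 points. Gria2, the subunit whose edited form blocks calcium entry, was covered over 17.8% and 22.1%, and its peaks were the shallowest of the class, at 1.21-fold in sg-Ctrl and 1.25-fold in KO.

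Of the kainate subunits, Grik4 was among the genes with the largest change. Its body of 424 kb had 8 peaks over 13.7% in sg-Ctrl and 14 peaks over 52.3% in KO, with 166 kb covered in KO alone and 2 kb in sg-Ctrl alone. Its CG-rich start lay 22.4 kb from the nearest covered base in the sg-Ctrl list and 2.37 kb from it in the KO list. Grik1 went from 54.3% to 67%. Grik2 went the other way, from 20.5% to 10.7%, a change of -9.76 points that stayed just inside the limit, next to Gabra3 on the side of gain with 9.84 points.

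The NMDA subunits split. Grin2b, the 444 kb gene for the subunit that predominates before birth, had the largest gain in length of the family. In sg-Ctrl 14 separate peaks of at most 31 kb covered 154 kb (34.7%), and in KO 7 peaks of up to 182 kb covered 395 kb (89%), with 0 kb lost. From its start to the nearest covered base was 44.5 kb in sg-Ctrl but 1.51 kb in KO. Grin2a, its counterpart of the adult brain, went from 26.6% to 60.1% with 139 kb gained and 0 lost. Grin3a, a subunit that lowers calcium flow, went from 32% to 8.15%, losing 44 kb and gaining none. Of the delta receptors, which bind cerebellin at synapses, Grid1 (761 kb) went from 28.1% to 36.3%, with 97 kb covered in KO alone and 35 kb in sg-Ctrl alone.

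Among the metabotropic receptors Grm5, which couples to phospholipase C, was covered over 22.3% in both lists, with 12 kb gained and 12 kb lost. Grm3 went from 77.8% to 92.8% and Grm8 from 68% to 77%. Grm6, the receptor of retinal bipolar cells, had 1.21 kb covered in KO alone, by the edge of a peak shared with Zfp454. Grm7 had no H3K27me3 in either list although it is 922 kb long, while 12 NUP210 and 13 NPC peaks were listed on it. Among all 184 genes of 500 kb or more with an entry, 14.7% had no H3K27me3, so its absence is not rare.

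**Figure D4:**
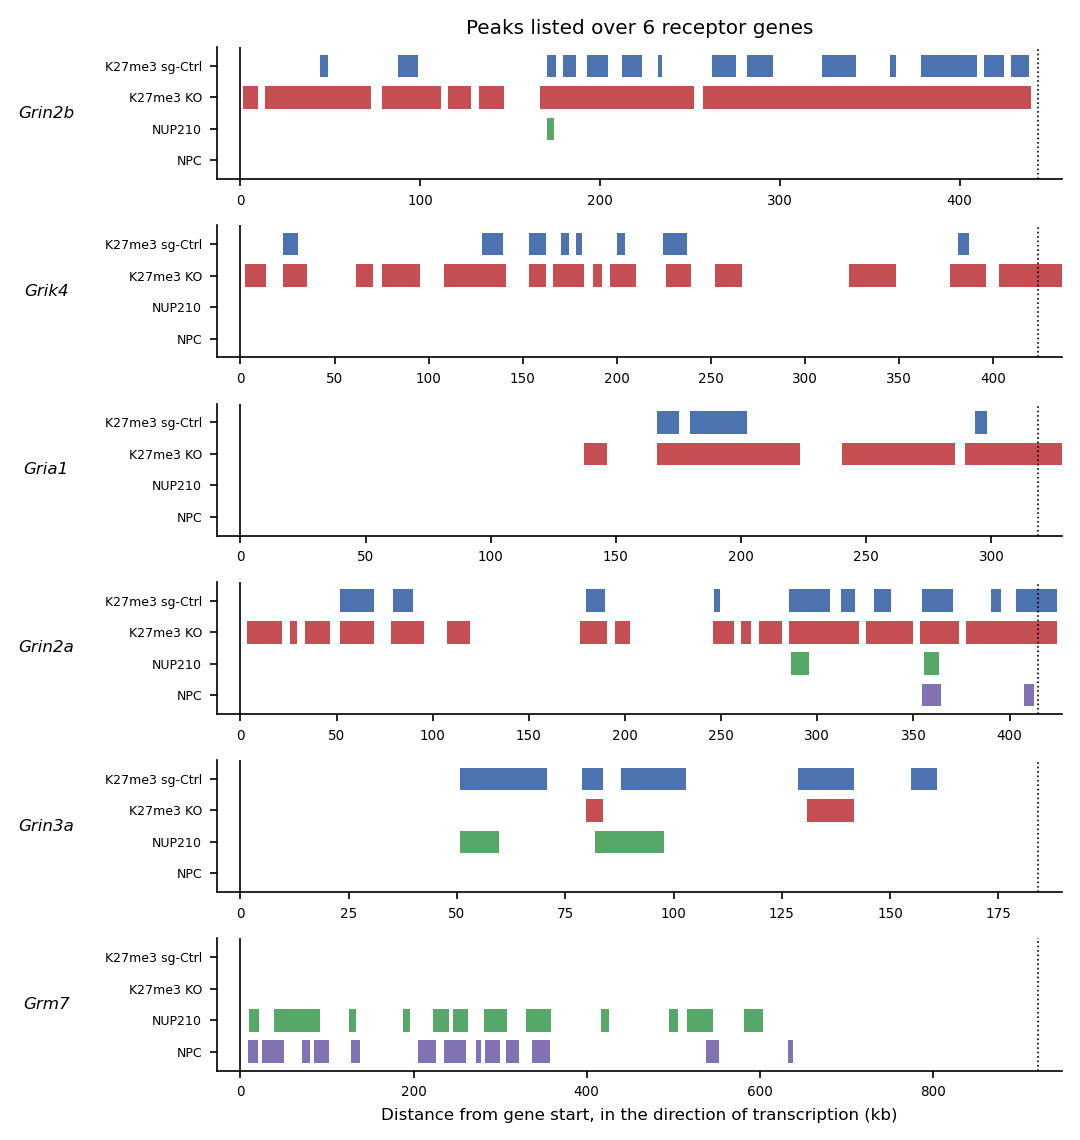
Peaks of H3K27me3 in sg-Ctrl and KO, of NUP210 and of NPC over Grin2b, Grik4, Gria1, Grin2a, Grin3a and Grm7, drawn by distance in kb from the gene start (solid line) to its end (dotted line). Over Grin2b 14 peaks in sg-Ctrl stand against 7 broad ones in KO, over Grin3a 5 against 2, and Grm7 has NUP210 and NPC peaks alone.

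The GABA-A genes are described here by chromosome. On chromosome 11, Gabrb2, a subunit of the most common receptor of the adult brain, went from 61.8% to 77.3%. Its neighbour Gabra6, a cerebellar alpha subunit gene of 14.6 kb, went from 61.9% to 75.6%. The peaks of both were shallow, at 1.43-fold and 1.39-fold at the median in sg-Ctrl. On chromosome 5, Gabrg1, Gabra2, Gabra4 and Gabrb1 together had 32.5% of their summed length covered in sg-Ctrl and 31% in KO. There Gabrb1 held most of it (47.4% and 50.5%), Gabrg1 went from 25.1% to 3.28%, and the single KO peak of Gabrg1 was below IgG, at 0.829-fold. On chromosome 7, Gabra5 was covered over 3.91% and 4.89%, and Gabrg3, a gene of 663 kb, over 0 and 0.453%. NUP210 peaks covered none of Gabra5 and 1.96% of Gabrg3.

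The cluster of Gabre, Gabra3 and Gabrq on the X chromosome went from 61.1% to 77.5% of its summed gene length. Gabra3 (224 kb) was covered over 69.4% in sg-Ctrl and 79.3% in KO, and its flanking genes Gabre and Gabrq had none in sg-Ctrl and 63.6% and 65.2% in KO. The Gabre peak of KO held 667 reads against 63 of IgG (3.96-fold) and the Gabrq peak 2398 against 229 (3.91-fold). Since both genes are short (17.3 and 13.1 kb), 1 peak sets the whole change. Gabrp, a subunit of epithelial tissues outside the brain, likewise had a peak in KO alone, over 24.8% and at 1.65-fold. The rho subunits of the retina varied, with Gabrr3 covered over 92.6% and 100%, Gabrr2 over 9.16% in both by the same 3 kb peak, and Gabrr1 over 19.3% in sg-Ctrl and 0 in KO. The density of that Gabrr2 peak, in scaled reads per kb, was 65.7 for sg-Ctrl but 34.6 for KO, the largest decrease in density of the family (-0.92 on the log2 scale). Of the GABA-B genes, Gabbr2 had 1 peak of 9 kb in sg-Ctrl (160 reads) and none in KO.

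The density of reads within these regions was also compared. Over 149 joined regions of receptor genes with a peak in both lists, scaled reads per kb of region had a median log2 ratio of 0.057, against 0.016 over all 6247 such regions. In 29 of them the density was at least 1.5-fold higher in KO (all regions 21.2%) and in 19 as much lower (18.2%). The lists hold no reads outside peaks, so a region bridged by a KO peak and dotted with sg-Ctrl peaks gives a ratio that is too large. This touched the genes of large gains. By joined region the log2 ratio was 1.76 at Gria1, 1.40 at Grin2b, 0.80 at Grin2a and 0.79 at Grik4. When the reads were divided by the summed length of the peaks alone, it was 0.30, 0.18, 0.16 and -0.22. Over all its peaks, Grin2b had a density of 28.3 (sg-Ctrl) and 31.4 (KO), and Grik4 one of 31.5 and 26.2. At Grin3a both measures were negative (-0.58 and -0.32).

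NUP210 peaks were listed on 25 of the 48 receptor genes (52.1%, exact interval 37.2 to 66.7) against 26.2% of all protein-coding genes, and NPC peaks on 23 (47.9%, 33.3 to 62.8) against 23.8%. Within length classes the NUP210 shares lay on either side of those of all genes, with 9 of 15 at 200 to 500 kb (all genes 68.1%) and 7 of 7 at 500 kb or more (85.9%). The highest NUP210 cover was that of Grik2 (85.5% of the body), followed by Gabrg1 (79.7%), and that of Gabra6 was 75.6%. Gria1, Gria3, Grik4, Gabra5 and Gabbr2 had none, and on Grin2b there was 1 peak of 4 kb, at 0.96-fold, below IgG. Median NUP210 folds ranged from 0.96 to 1.68 over the receptor genes, and 4 of the 25 had any NUP210 peak at least 2-fold over IgG.

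Receptor genes with little NUP210 had the steeper H3K27me3. Over the 30 genes with H3K27me3 in sg-Ctrl, the median H3K27me3 fold and the NUP210 cover of the body were related with Pearson's r of -0.68 and Spearman's rho of -0.86, across genes, which are not independent replicates. The fold has IgG reads as its denominator, and the IgG reads per kb of the same peaks went with NUP210 cover as well (r of 0.89, rho of 0.90) and with the fold (r of -0.75, rho of -0.91). The part of the IgG signal in the relation was not tested. NUP210 and NPC cover went together over the same genes (r of 0.86). At 100 kb or more, NUP210 cover and H3K27me3 fold had an r of -0.78 and a rho of -0.89 over 22 receptor genes, and an r of -0.07 and a rho of -0.47 over all 1055 genes with H3K27me3 in sg-Ctrl.

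**Figure D5:**
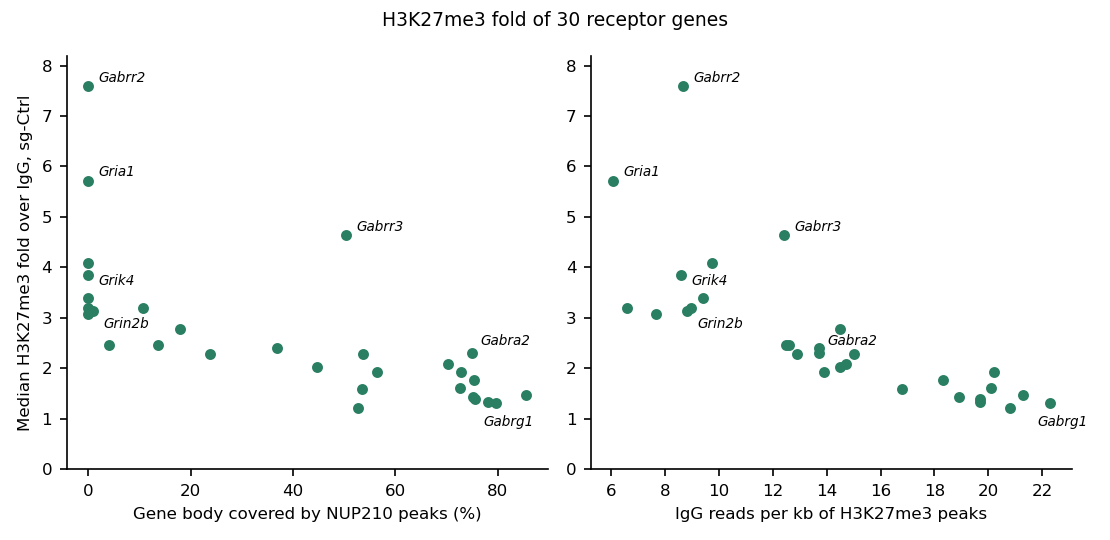
Median H3K27me3 fold over IgG in sg-Ctrl of the 30 receptor genes with a peak, against the percent of the gene body covered by NUP210 peaks (left) and against IgG reads per kb of the H3K27me3 peaks (right), 1 point per gene. Gabrr2 at 7.59 and Gria1 at 5.72 have no NUP210 and few IgG reads, and Gabrg1 at 1.31 lies at the right of both panels, while Gabrr3 at 4.64 stands above the rest with 50.3% NUP210 cover.

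Of the 1398 kb of receptor genes covered in KO alone, 387 kb (27.7%) lay on a NUP210 peak. The share is bounded by the NUP210 cover of each gene: Gria1, Gria3 and Grik4 have no NUP210 peak, and those of Grin2b and Grin2a cover 4 and 17 kb. At genes with more of it the share varied. On NUP210 lay 69 of 69 kb at Gria4 and 32 of 41 kb at Gabrb2, with NUP210 cover of 75.4% and 75.2%. At Grik1 (53.6% NUP210 cover) it was 33 of 54 kb, at Grm3 (44.6%) 5 of 43 kb and at Grm8 (36.8%) 25 of 109 kb. The net gain of Gria4 depended on its KO peaks at the level of IgG. Among receptor genes of 100 kb or more, cover went from 16.9% to 36.9% of the summed length in the 5 with no NUP210 peak, and from 41.9% to 48.3% in the 18 with one. A gain of 10 points was seen in 3 of 5 and 6 of 18. Over all genes of that length the shares with such a gain were 30.9% of 356 without and 27.5% of 781 with NUP210, and NUP210 cover and the change in H3K27me3 cover had an r of 0.01 (receptor genes -0.33 over 22 genes).

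The genes that serve these receptors were listed as 62 auxiliary subunits, scaffolds, transporters and enzymes, and adhesion molecules. Of these 26 had H3K27me3 in sg-Ctrl (all genes 19.8%) and 31 in KO (20.4%). Of the 33 with it in either list, 10 gained at least 10 points, a share near that of all genes with a peak (30.4%), and 3 lost as much, a share below that of all genes (18.1%). The gains were widest at Cacng5, an AMPA auxiliary subunit gene (0 and 54.4%), Dlgap2, a postsynaptic scaffold gene (16% and 63.6%), and Gad1, which makes GABA (40.2% and 80.3%). The losses were at Kctd8 (23.2% and 4.73%) and Kctd16 (91.2% and 80.9%), both auxiliary to GABA-B receptors, and at the glutamate transporter gene Slc1a2 (91.8% and 74.4%). H3K4me3 at the start was present in both lists for 16, with a median log2 ratio of -0.47, near that of all genes. It was lowest for Dlg4 (-1.84), although its reads went from 758 to 1169, spread over a wider peak. It was highest for Cacng7 (1.56, from 43 to 281 reads).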

How the data were processed

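ChIP-seq peak lists of 6 libraries were used. Against IgG, the authors ran SICER on every library separately (windows of 200 bp for H3K4me3, otherwise 1000 bp) and paired the peaks with gene bodies or with 4 kb on either side of the TSS. The submitters' processing notes name Bowtie2, mm9, mm10 and NCBIM37 without roles. The authors deposited raw read counts of ChIP and IgG per peak together with a p-value, an FDR, and the fold of ChIP to IgG (a ratio after scaling to library size, with 0.25 reads where IgG has none). The 4 RNA-seq samples were left out, and IgG entered through the lists only.

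Entries repeating a peak were collapsed. Peaks were clipped to the gene body, the longest transcript joined with those overlapping it. The library-size ratio was recovered from counts and folds. H3K27me3 peaks overlapping between lists by 1 bp were joined. A change was called at 10 percentage points of the body, 1.5-fold for joined regions or 2-fold for H3K4me3. Of 18562 symbols, 18476 matched RefSeq by accession or name, and a gene's length was that of the lists or else of RefSeq. All receptor genes could be named, and of related genes at most 3 a direction, apart from genes that are not reported here. The members and lists were chosen with earlier results of these data known. Simulated lists gave back 200 of 200 changed genes, among 2000 for cover and 12453 for H3K4me3. Intervals are 95% exact binomial or Poisson and assume independent reads. Alternatives were a limit on the FDR (0.05), on the fold (2) or on cover (10%), 10 kb flanks, autosomes, limits of 5 and 20 points, scaling by shared peaks, other densities, and the peak over the TSS. Scripts ran in Python 3.11.15 (scipy 1.17.1, pandas 2.3.3, numpy 2.4.6).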

Additional observations from a re-analysis of the deposited data

How the results depend on the processing

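Of 36 comparisons with an alternative, over 12 results, 30 stayed within the limits set. Counts of genes with NUP210 and NPC fell most, from 25 to 4 and from 23 to 1 with peaks at least 2-fold over IgG, which follows from their low folds. A limit of 20 percentage points left 7 genes with an H3K27me3 gain in place of 13, and an FDR limit of 0.05 left 12. The ratio of covered length was between 1.2 and 1.22 under every alternative tried. The median H3K27me3 log2 ratio of receptor regions was 0.21 with scaling by shared peaks, and it reversed to -0.15 when reads were divided by the length of the peaks alone, where all regions gave -0.14, so no direction of density is given. The median H3K4me3 log2 ratio of Gabbr1, Grik5 and Grin2d was 0.16 by the densest peak, 0.46 by the peak over the TSS and 0.62 with scaling by shared peaks. No paired analysis was possible because each ChIP-seq condition has 1 library. The lists give neither reads outside peaks nor total depth, so a gene with no entry may still carry the mark below the limit of peak calling.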
